A study of Saccharomyces cerevisiae with 14 samples.

Results

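The genes described are 30 of *Saccharomyces cerevisiae* that build ergosterol, store it as ester or control its synthesis, out of 6387 open reading frames on the arrays. They were taken by name and by no rule on measured values, but with earlier results of these data known. The 9 genes of the mevalonate and isoprenoid steps are *ERG10* (YPL028W), *ERG13* (YML126C), *HMG1* (YML075C), *HMG2* (YLR450W), *ERG12* (YMR208W), *ERG8* (YMR220W), *MVD1* (YNR043W), *IDI1* (YPL117C) and *ERG20* (YJL167W). The 3 of the squalene steps are *ERG9* (YHR190W), *ERG1* (YGR175C) and *ERG7* (YHR072W), and the 12 of the late sterol steps are *ERG11* (YHR007C), *NCP1* (YHR042W), *ERG24* (YNL280C), *ERG25* (YGR060W), *ERG26* (YGL001C), *ERG27* (YLR100W), *ERG28* (YER044C), *ERG6* (YML008C), *ERG2* (YMR202W), *ERG3* (YLR056W), *ERG5* (YMR015C) and *ERG4* (YGL012W). The other members are the 2 genes of sterol esterification, *ARE1* (YCR048W) and *ARE2* (YNR019W), and the 4 regulators *UPC2* (YDR213W), *ECM22* (YLR228C), *NSG1* (YHR133C) and *NSG2* (YNL156C). Strain NRRL Y-12632 was grown aerobically in synthetic complete medium, and 30 mM HMF (5-hydroxymethylfurfural, an inhibitor formed from sugars when plant biomass is pretreated with acid) was added to the treated cultures 6 h after inoculation. Control cultures received no HMF. RNA was hybridized at 10, 30, 60 and 120 min to 2-color arrays of long oligonucleotides, with 2 biological replicates per group at the earlier 3 times and 1 array per group at 120 min. All 14 test samples, 7 with HMF and 7 of the control, were set against untreated RNA of the 0 min time point, so that every value is a ratio to 0 min.

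Ergosterol is the main sterol of the yeast plasma membrane, where it plays the part that cholesterol plays in animal cells. Acetyl-CoA is built up to mevalonate and then to farnesyl pyrophosphate, 2 of these units are joined to squalene, and squalene is closed to lanosterol, which a series of demethylations, reductions and desaturations turns into ergosterol. Several steps need molecular oxygen, heme or NADPH. The flow is set at HMG-CoA reductase and, when sterol runs low, by the zinc cluster activators Upc2p and Ecm22p, which bind the promoters of many *ERG* genes.

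The values are log2 ratios that were centred on the median of each array, since the median of all genes as deposited lay between -0.32 and 1.29 on single arrays. A centred value of 0 is the level of the median gene of that array relative to 0 min. Centring raised every mean difference between HMF and control by the same amount, because the median mean difference of all genes was -0.19 as deposited and 0.00 after centring. On members the median SD between replicates was 0.247, equal to that over all genes to 3 digits. A test in limma used 1 mean for each of the 8 groups, and the limit for a call was 0.05 on the p value after Benjamini-Hochberg adjustment over all 6387 reading frames. In RNA of a whole culture, a change per cell and a change in the mix of cells cannot be told apart.

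*ERG27* and *ERG28*, both of the complex that strips methyl groups from the sterol ring after lanosterol, rose with HMF, to 1.61-fold and 1.55-fold the control level over the 4 times after centring. They were the 2 of 30 members called in the difference between HMF and control averaged over the 4 times, against 11.3% of all genes called and 5.09% called higher. No member was called lower. The centred mean difference was positive for 26 of 30 members, with a median of 0.24 and a range of -0.27 to 0.68, while over all genes 50.1% were positive and the median was 0.00. As deposited, 17 of 30 were positive, the median was 0.04 and none was called, with 1.85% of all genes called. After quantile normalization 23 were positive and *ERG27* alone was called. In limma 6 of 30 members had an unadjusted p under 0.05, against 25.1% of all genes. The differences were small. For 27 of 30 members the 95% interval lay within 2-fold either way, which was so for 70.6% of all genes, and the exceptions were *ERG28*, *ERG3* and *ERG5*. A higher mean with HMF at each of the 4 times was seen in 11 of 30 members, against 18.1% of all genes.

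**Figure D1:**
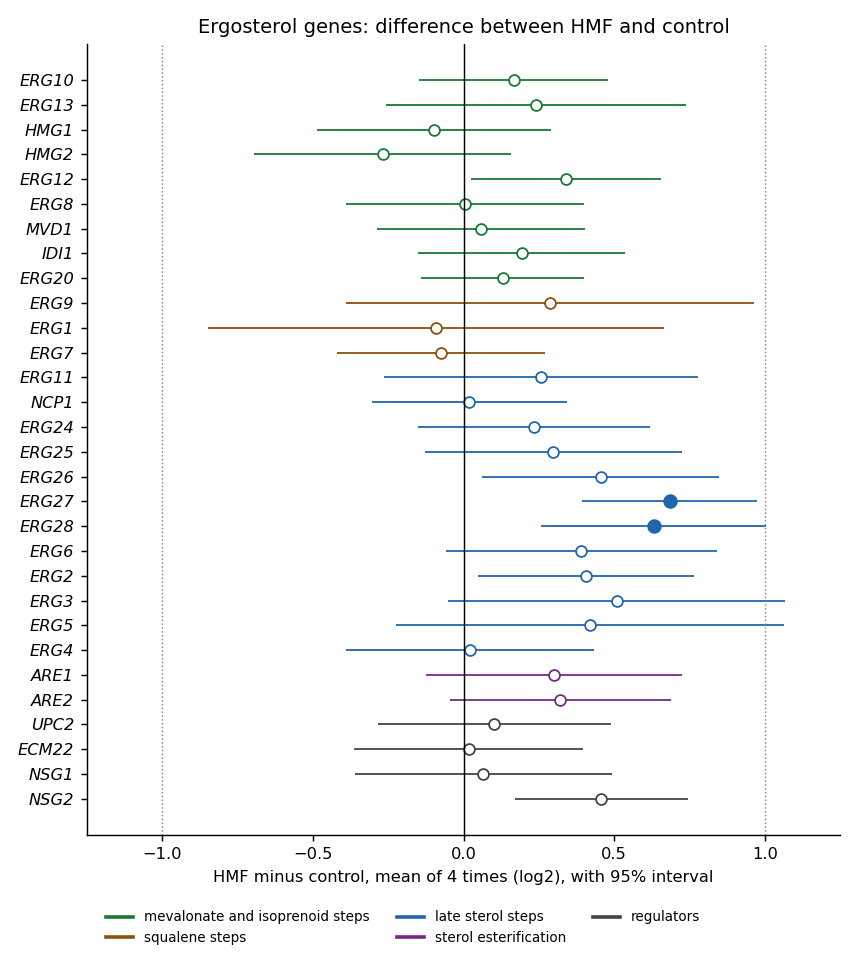
Difference between HMF and control, averaged over the 4 times, for the 30 ergosterol genes in pathway order, on the centred log2 scale (x axis), with 95% intervals from limma as bars. Filled points are genes at an adjusted p of at most 0.05, dotted lines mark 2-fold, and the late sterol steps, shown in blue, all lie above 0 with a median of 0.40.

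*ERG27* codes for the keto reductase of sterol C4 demethylation. With HMF its centred log2 ratio to 0 min was 0.48 and 0.48 (10 min), 0.67 and 0.87 (30 min), 1.07 and 1.49 (60 min) and 0.95 (120 min). Its control values were -0.03 and 0.32 (10 min), -0.01 and 0.19 (30 min), 0.24 and 0.36 (60 min) and 0.21 (120 min). All 7 HMF arrays lay above all 7 control arrays, which held for no other member and for 2.36% of all genes. The mean difference was 0.68 ± 0.13 (SE), a 1.61-fold higher level (95% interval 1.31 to 1.97), with an adjusted p of 0.010 in limma. Relative to the median gene of each array, the HMF mean at 60 min was 2.43-fold the 0 min level (centred log2 1.28 ± 0.30, SD, n = 2). On the same scale the untreated mean at 60 min was 1.23-fold (0.30 ± 0.09). *ERG27* was called in all 12 fits that left out 1 replicated array, with differences of 0.63 to 0.74, but not as deposited (0.49, adjusted p = 0.60).

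*ERG28* codes for the scaffold that holds the demethylation enzymes together in the endoplasmic reticulum. Its centred ratios with HMF were 0.84 and 1.20 (10 min), 0.47 and 0.94 (30 min), 0.53 and 0.86 (60 min) and 1.14 (120 min). The control arrays gave -0.01 and 0.51 (10 min), 0.04 and 0.52 (30 min), 0.24 and 0.34 (60 min) and 0.21 (120 min). The groups overlapped at one point only, as HMF replicate 1 at 30 min lay below both control replicate 2 arrays at 10 and 30 min. The mean difference was 0.63 ± 0.16 (1.55-fold, adjusted p = 0.041 in limma). This call was close to the limit and held in 4 of the 12 fits with 1 array left out, where the adjusted p ran from 0.035 to 0.096. It was lost without any 60 min array, without HMF replicate 2 or control replicate 1 at 10 min, and without the same arrays at 30 min. It was also lost as deposited (adjusted p = 0.67), after quantile normalization (0.18), and in the two-factor fit of the methods without moderation (0.060).

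**Figure D2:**
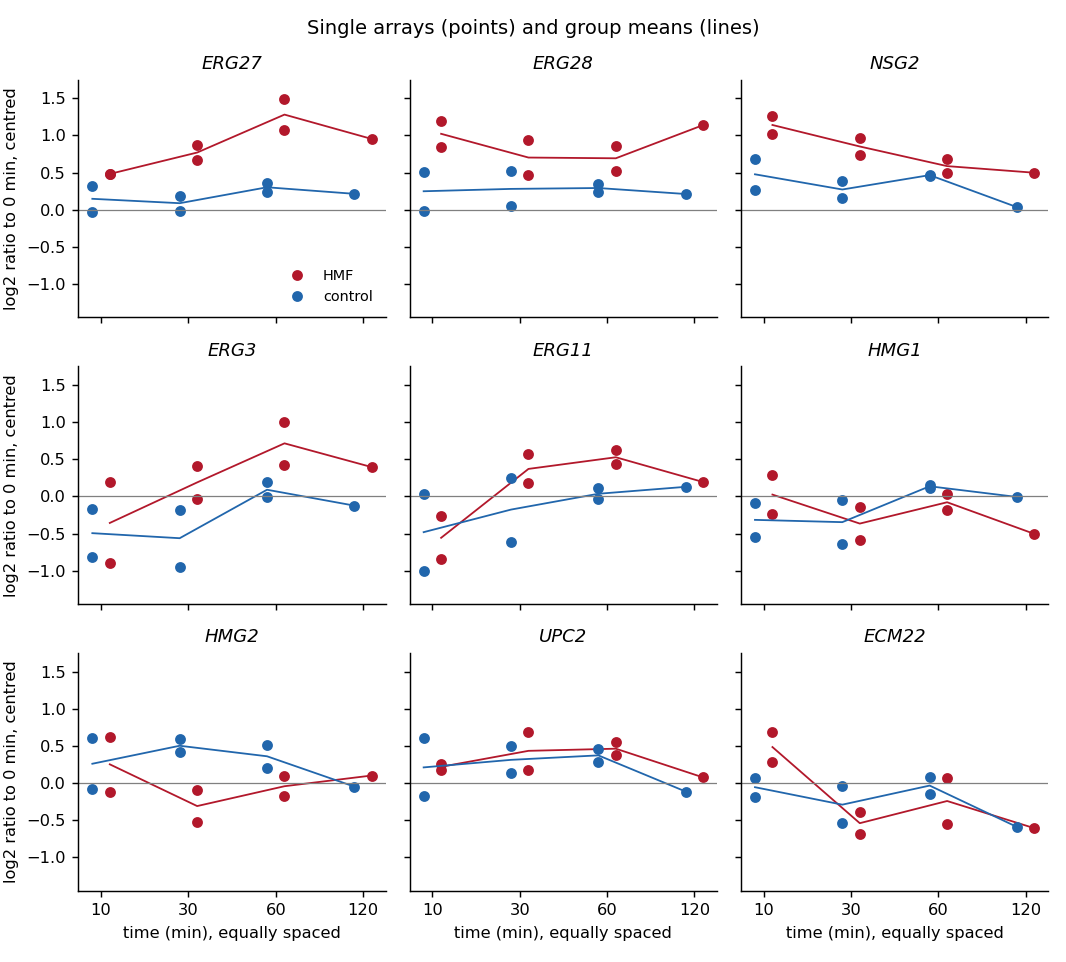
Centred log2 ratio to 0 min (y axis) against time in min (x axis, equally spaced) for 9 named genes, with single arrays as points and group means as lines, HMF in red and control in blue. *ERG27* shows no overlap between the treatments, whereas for *HMG1*, *UPC2* and *ECM22* the points of HMF and control are mixed.

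The late sterol steps as a group lay higher with HMF after centring. All 12 mean differences were positive, also after quantile normalization, and 10 of 12 were positive as deposited, where *NCP1* and *ERG4* turned negative. The median was 0.40 centred, 0.31 after quantile normalization and 0.21 as deposited, and the range on the centred scale was 0.02 to 0.68. *ERG26*, the decarboxylating dehydrogenase that acts beside *ERG27*, followed with 0.45 ± 0.17, and 6 of its 7 HMF arrays lay above the highest control array. It did not pass the test (adjusted p = 0.14 in limma), but did with replicate number as a block (4 members called: *ERG26*, *ERG27*, *ERG28* and *NSG2*, against 16.9% of all genes in that fit). With a block at each time *ERG26* was not called (adjusted p = 0.063), nor was it in any fit with 1 array left out. *ERG25*, the methyl oxidase that opens this demethylation, had a difference of 0.30 ± 0.19. Of the genes that act after it, *ERG2* (sterol isomerase) differed by 0.41 ± 0.16, *ERG5* (desaturase of the side chain) by 0.42 ± 0.28 and *ERG6* (sterol methyltransferase) by 0.39 ± 0.20. None of these passed the test, with adjusted p values of 0.15 to 0.41 in limma. *ERG24*, the reductase that follows *ERG11*, gave 0.23, while *NCP1*, which passes electrons to the cytochrome P450 enzymes, and *ERG4*, the last reductase, each gave 0.02.

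*ERG3*, a desaturase of the sterol ring, had the third highest mean difference, 0.51 ± 0.25 (95% interval -0.05 to 1.07, adjusted p = 0.25 in limma). With HMF it read 0.19 and -0.90 (10 min), -0.04 and 0.42 (30 min), 0.43 and 1.00 (60 min) and 0.39 (120 min). In the control it read -0.82 and -0.17, then -0.95 and -0.18, then 0.19 and -0.01, and -0.12. The replicates at 10 min with HMF stood 1.09 apart, one above and the other below both control arrays of that time. *ERG11* codes for lanosterol demethylase, the target of azole antifungals. Its arrays gave -0.27, -0.84, 0.17, 0.57, 0.43, 0.62 and 0.19 with HMF in order of time, and -1.0, 0.04, -0.61, 0.25, 0.11, -0.04 and 0.13 on control arrays. The treatments overlapped, and the mean difference of 0.26 ± 0.23 (95% interval -0.26 to 0.78, adjusted p = 0.55) was about as large as its error.

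The genes of the mevalonate steps gave a median of 0.13 and no call, with 7 of 9 positive after centring, 5 after quantile normalization and 3 as deposited. *ERG12*, mevalonate kinase, had the highest difference, 0.34 ± 0.14 (adjusted p = 0.16 in limma). Smaller positive values were found for *ERG13* (HMG-CoA synthase, 0.24), *IDI1* (isopentenyl pyrophosphate isomerase, 0.19), *ERG10* (acetoacetyl-CoA thiolase, 0.17) and *ERG20* (farnesyl pyrophosphate synthase, 0.13). *MVD1*, the decarboxylase, gave 0.06 and *ERG8*, phosphomevalonate kinase, 0.01. For each of the 9 genes the 95% interval lay within 2-fold, and their median standard error was 0.15.

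*HMG1* and *HMG2* code for the paralogous HMG-CoA reductases, and their mean differences were the lowest of all members after centring. *HMG2* gave 0.63 and -0.12 (10 min), -0.10 and -0.52 (30 min), -0.18 and 0.09 (60 min) and 0.10 (120 min) with HMF. The control gave 0.60 and -0.08, then 0.59 and 0.42, then 0.21 and 0.51, and -0.05. At 30 and 60 min both HMF arrays lay below both control arrays, by 0.81 and 0.40 on average, and at 10 and 120 min they did not. The mean difference was -0.27 ± 0.19 (95% interval -0.69 to 0.16, adjusted p = 0.43 in limma). For *HMG1* the HMF arrays read 0.29, -0.24, -0.59, -0.14, -0.19, 0.03 and -0.51 and the control arrays -0.54, -0.09, -0.64, -0.05, 0.16, 0.12 and -0.01, with the ranges overlapping. Its mean difference was -0.10 ± 0.17 (95% interval -0.49 to 0.29, adjusted p = 0.79). Probe sequences were not used here, so that cross-hybridization between paralogs was not tested.

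Of the 3 genes of the squalene steps, 1 had a positive difference on each of the 3 scales, and the median was -0.08 after centring. *ERG9*, squalene synthase, gave 0.29 ± 0.30 and *ERG7*, lanosterol synthase, -0.08 ± 0.15. *ERG1* codes for squalene epoxidase, the target of terbinafine, and had a mean difference of -0.09 ± 0.33 (adjusted p = 0.91 in limma). Its arrays read -0.22 and -0.01, then -0.68 and 0.54, then -0.02 and 0.67, and 0.33 with HMF, and -0.65 and 0.72, then -0.71 and 0.55, then 0.51 and 0.78, and 0.23 in the control. Within each replicated group replicate 2 of *ERG1* was the higher, by 0.21 to 1.36, so that the spread between replicates was larger than the difference between treatments. *ARE1* and *ARE2*, the paralogous acyltransferases that make sterol ester, had differences of 0.30 ± 0.19 and 0.32 ± 0.16 and adjusted p values of 0.37 and 0.26. Both stayed positive as deposited, at 0.11 and 0.13.

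Among the 4 regulators no gene passed the test in the mean, and all 4 differences were positive after centring, 3 after quantile normalization and 1 as deposited. *NSG2*, of the INSIG-like family, in which the *NSG1* product stabilizes Hmg2p, came nearest, with 0.46 ± 0.13 (95% interval 0.17 to 0.74, adjusted p = 0.051 in limma). With replicate number as a block it was called (adjusted p = 0.015), as it was with a block at each time (0.027), in the two-factor fit of the methods (0.036) and without control replicate 2 at 10 min (0.51, adjusted p = 0.039), but not as deposited (0.26, adjusted p = 0.84). Its HMF arrays read 1.02 and 1.26 (10 min), 0.74 and 0.96 (30 min), 0.49 and 0.68 (60 min) and 0.50 (120 min). Its control arrays read 0.27 and 0.68, then 0.16 and 0.39, then 0.47 and 0.46, and 0.03. Its differences were 0.66, 0.58 and 0.12 in order of the replicated times, and 0.46 between the single arrays of 120 min. The level was above 0 on all 14 arrays, which among the members was so only for *NSG2* and *ERG20*. Its paralog *NSG1* gave -0.09, 0.20, -0.32, 0.24, -0.09, 0.39 and 0.20 with HMF and -0.27, 0.41, -0.20, 0.28, 0.20, 0.50 and -0.36 without it. Here no HMF array lay above the highest control array, and the mean difference was 0.07 ± 0.19 (95% interval -0.36 to 0.49, adjusted p = 0.88).

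The genes of the sterol activators differed little between the treatments in the mean. *UPC2* read 0.18, 0.26, 0.18, 0.69, 0.38, 0.55 and 0.08 with HMF and -0.18, 0.60, 0.13, 0.49, 0.46, 0.29 and -0.11 without it, a mean difference of 0.10 ± 0.17 (95% interval -0.28 to 0.49, adjusted p = 0.77 in limma). *ECM22* read 0.69 and 0.28 at 10 min with HMF, then -0.39 and -0.69, then -0.55 and 0.07, and -0.61. The control had 0.07 and -0.18, then -0.54 and -0.04, then -0.15 and 0.08, and -0.59. The 2 HMF arrays at 10 min were the highest of the 14, and the later arrays of both treatments mixed. The mean difference of *ECM22* was 0.02 ± 0.17 (95% interval -0.36 to 0.40, adjusted p = 0.97), and the upper bound of 1.40-fold for *UPC2* and 1.32-fold for *ECM22* is the largest rise that these intervals allow. The sign of both differences turned as deposited, that of *UPC2* also after quantile normalization, and that of *ECM22* also without the 10 min arrays and in 6 of the 12 fits with 1 array left out. The arrays measure RNA, and the activity of either factor was not measured.

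**Figure D3:**
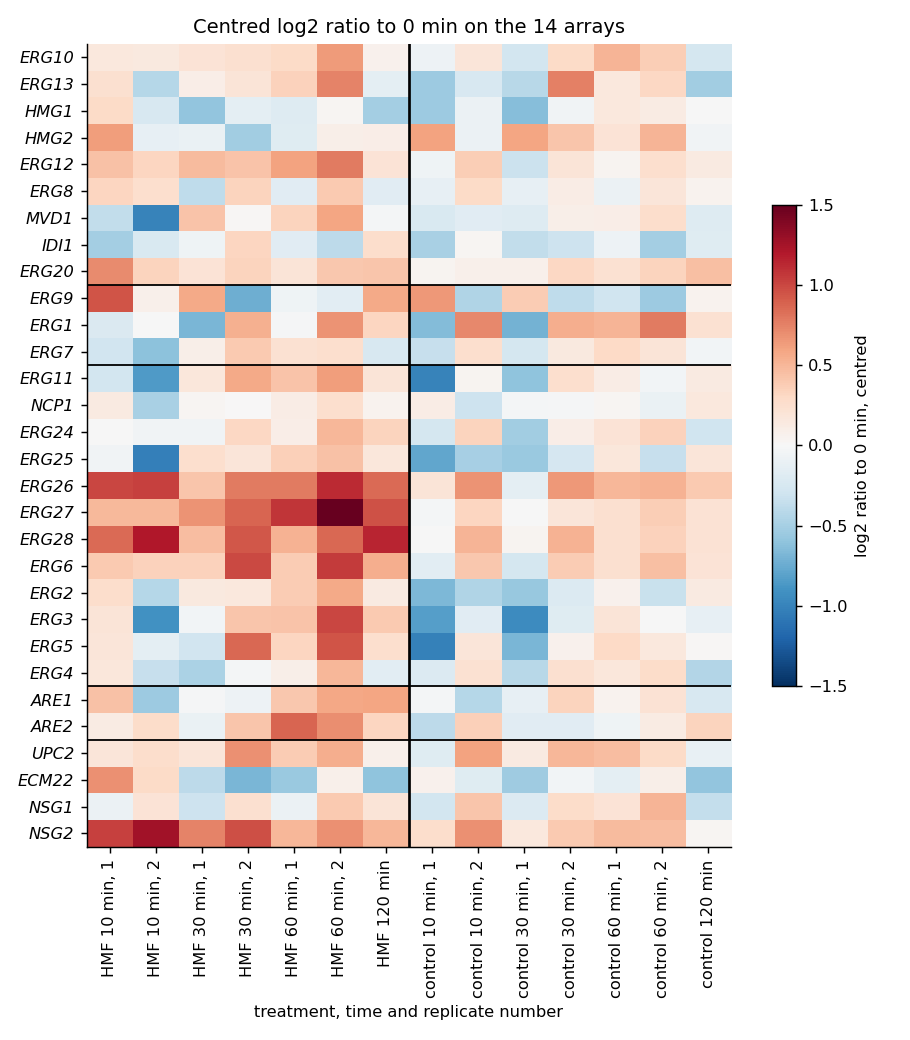
Centred log2 ratio to 0 min of the 30 genes (rows, in pathway order, with lines between the step groups) on the 14 arrays (columns, HMF to the left and control to the right of the thick line). *ERG26*, *ERG27*, *ERG28* and *NSG2* are among the 9 of 30 members that lie above 0 (red) on all 7 HMF arrays, as do 1003 of all 6387 genes. *HMG2* lies above 0 on 5 of 7 control and 3 of 7 HMF arrays, the same counts as *ERG1*.

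At single times no member passed the test. The differences given here are centred, and at single times they depended on the scale. After centring 20, 21, 24 and 22 of 30 members were positive at 10, 30, 60 and 120 min. As deposited 1, 12, 28 and 21 were, as were 719, 1561, 4602 and 3278 of all 6387 genes. The median of the members at 10 min was 0.18 after centring and -0.48 as deposited. At 10 min 2.14% of all genes were called, and of the members *ERG28* (0.77) and *NSG2* (0.66) had an unadjusted p under 0.05 in limma, as had 17.7% of all genes. At 30 min 2.57% of all genes were called, and the members under 0.05 unadjusted were *ERG27* (0.68) and *NSG2* (0.58), which were higher with HMF, and *HMG2*, which was lower (-0.81), against 15.5% of all genes. At 60 min, with 0.971% of all genes called, they were *ERG27* (0.98, adjusted p = 0.11) and *ARE2* (0.75), against 11.8%. At 120 min, where 1 array per group was compared and 0.204% of all genes were called, it was *ERG27* alone (0.74), against 7.55%. With replicate number as a block, *ERG28* was called at 10 min and *ERG27* at 60 min, where that fit called 456 and 172 of all genes. The test that the 4 differences are equal called no member and 0% of all genes, and no member had an unadjusted p under 0.05. By the two-factor fit without moderation, after adjustment, *ERG27* (adjusted p = 0.012) and *NSG2* (0.036) were called in the mean, *ERG28* was not (0.060), and none was called at a single time.

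The early and the late steps were compared as medians, with no test, since genes of a pathway are not replicates. At 10 min the median difference between HMF and control after centring was 0.20 for the 9 mevalonate genes and 0.19 for the 12 late genes. The later times gave 0.07 and 0.54, then 0.03 and 0.42, then 0.15 and 0.31. The mevalonate median thus lay below the late median by 0.47, 0.39 and 0.16 at the later 3 times, and level with it at 10 min. Over the 4 times it lay lower by 0.27, and by 0.17 to 0.31 with 1 array left out in turn. The gap was smaller with the 3 squalene genes counted as late. The late median over the 4 times was then 0.30 in place of 0.40, against 0.13 for the mevalonate genes. The comparison is free of the centring, which moves all genes of an array alike.

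On single arrays with HMF, the mevalonate median minus the late median was 0.11 and 0.13 (10 min), -0.06 and -0.25 (30 min), -0.19 and -0.33 (60 min) and -0.23 (120 min). On the control arrays it was 0.12 and -0.18, then 0.20 and 0.05, then -0.04 and 0.05, and -0.19. At 30 and at 60 min both HMF arrays lay below both control arrays, and at 10 min they did not. At 120 min the single arrays of HMF and control stood 0.035 apart. The late median itself was 0.18 and -0.25 (10 min), 0.16 and 0.49 (30 min), 0.38 and 0.74 (60 min) and 0.29 (120 min) with HMF, against -0.23 and 0.20, then -0.47 and 0.15, then 0.20 and 0.22, and 0.15 in the control. All 12 late genes were above the array median on both HMF arrays at 60 min, and on control replicate 1 of that time.

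**Figure D4:**
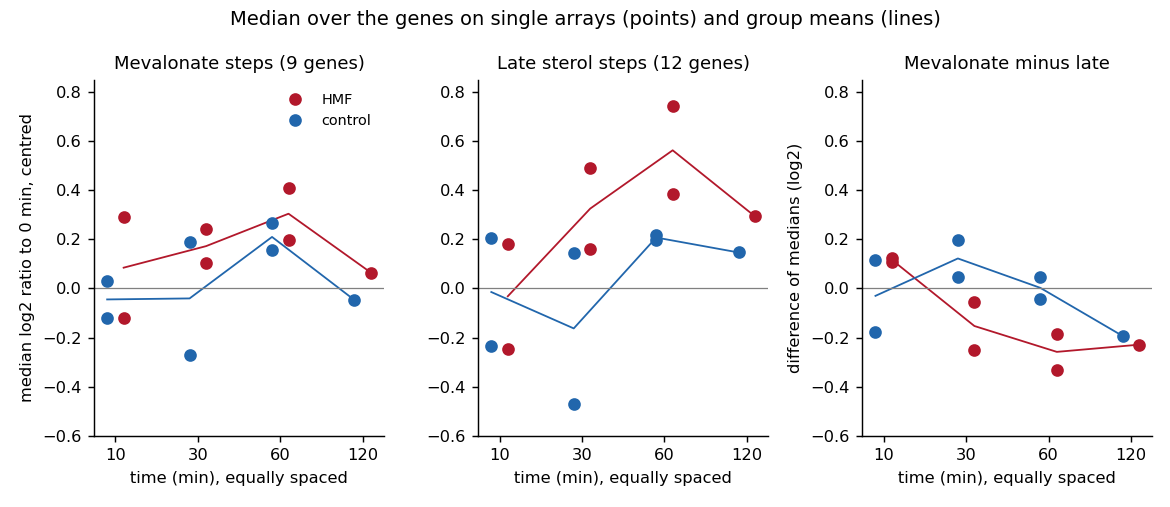
Median centred log2 ratio of the mevalonate genes (left) and the late sterol genes (middle), and the difference of these medians (right), on the y axis against time in min on the x axis, equally spaced, with single arrays as points and means of replicates as lines. In the right panel the HMF arrays at 30 and 60 min lie between -0.33 and -0.06, below the control arrays of the same times.

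Within the treated cultures the 10 min arrays were set against the mean of the later 3 times. No member passed the test, with 3.29% of all genes called, and 7 of 30 members had an unadjusted p under 0.05 in limma, against 20.2% of all genes. Of these, 5 were lower at 10 min, namely *ERG11* (-0.92), *MVD1* (-0.90, adjusted p = 0.069), *ERG25* (-0.80), *ERG7* (-0.53) and *ERG27* (-0.52). *ECM22* (0.95, adjusted p = 0.077) and *NSG2* (0.50) were higher at 10 min. The same comparison in the control called no member and 0% of all genes, and no member had an unadjusted p under 0.05. After centring all 7 had the same sign there: *ERG11* -0.48, *MVD1* -0.18, *ERG25* -0.53, *ERG7* -0.09, *ERG27* -0.05, *ECM22* 0.25 and *NSG2* 0.22. This depended on the scale. As deposited, all 30 members were higher at 10 min in the control, as were 5915 of all 6387 genes. In the treated cultures 9 of 30 members were higher at 10 min as deposited. Of the 7, *MVD1* had the lowest p within the treated cultures. Its HMF arrays read -0.37 and -1.0 at 10 min and 0.43, 0.02, 0.34, 0.59 and -0.03 later. Its control arrays read -0.23, -0.17, -0.20, 0.08, 0.10, 0.27 and -0.19. None of these members passed the test that the treatment differences are equal at the 4 times.

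Replicate 2 stood on the same side of replicate 1 in all 6 replicated groups for 6 of 30 members, against 18.9% of all genes. *ERG9* was lower in replicate 2, by 0.09 to 1.3, and *ERG1*, *ERG26*, *ERG27*, *ERG28* and *NSG1* were higher. For *ERG28* replicate 2 was higher by 0.10 to 0.52 and for *NSG1* by 0.29 to 0.69. Both treatments hold both numbers at 10, 30 and 60 min, so that an offset shared by replicate number drops out of the mean differences at these times.

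Around the pathway, 44 further genes in 7 lists were examined, and 3 of them were called in the mean, against the 11.3% of all genes, all higher with HMF, while 8 had an unadjusted p under 0.05 in limma. The calls were 2 of 7 genes of sterol uptake and anaerobic cell wall mannoproteins, and 1 of 6 genes of heme and electron supply. None was called among 4 genes of reductase turnover, 7 of isoprenoid branches, 10 of sterol transport, 5 of ester use and 5 of other regulators. The 4 reductase turnover genes *HRD1*, *HRD3*, *CUE1* and *UBC7*, which mark Hmg2p for degradation, had positive differences of 0.24 to 0.33 that were also positive as deposited. All 7 HMF arrays of *UBC7* lay above its 7 control arrays (0.33 ± 0.13, adjusted p = 0.14 in limma). This held for 1 of the 44 genes, against 2.36% of all genes. Among the sterol transport genes 4 of 10 were positive after centring, 2 after quantile normalization and none as deposited.

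*TIR4*, a cell wall mannoprotein gene that is known to be expressed when oxygen is low, had the largest difference of these genes. With HMF it read -0.17 and -0.82 (10 min), 0.32 and 0.32 (30 min), 1.64 and 2.18 (60 min) and 2.33 (120 min). In the control it read -0.39 and -0.81, then -0.98 and -0.46, then -0.45 and -0.27, and -1.24. The treatments overlapped at 10 min and were apart from 30 min on, with differences of 0.11, 1.03, 2.27 and 3.56 in order of time. In limma it was called at 60 min (adjusted p = 0.021), at 120 min (0.036) and in the mean (1.74 ± 0.18, adjusted p = 9.4e-04), and the mean was also called as deposited (1.55, adjusted p = 0.013) and in all 12 fits with 1 array left out. The call at 120 min was lost in each of those 12 fits (adjusted p = 0.057 to 0.095), and that at 60 min without any of the 4 arrays of that time (up to 0.16). As deposited, neither held (0.13 at 60 min and 0.19 at 120 min). The test that its 4 differences are equal was not passed (adjusted p = 0.78). *TIR1* and *TIR2*, of the same family, had differences of -0.21 and -0.25 and *TIR3* of 0.14, and *DAN1* had 0.46 ± 0.69, none of which passed the test.

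*PDR11* codes for an ABC transporter that takes up sterol when synthesis is blocked. With HMF it read 1.92 and 1.40 (10 min), 1.14 and 0.58 (30 min), 0.88 and 1.21 (60 min) and 1.13 (120 min), and in the control 0.25 and 0.22, then 0.50 and 0.40, then 0.42 and 0.71, and 0.26. Apart from HMF replicate 2 at 30 min, every HMF array lay above every control array. The mean difference was 0.79 ± 0.15 (1.73-fold, adjusted p = 0.012 in limma), and the difference at 10 min was 1.43 (adjusted p = 0.038). The latter was lost in 10 of the 12 fits with 1 array left out (adjusted p up to 0.15) and held only without either HMF array of 30 min, while the mean was called in all 12. The call of *PDR11* at 10 min was also lost as deposited (adjusted p = 0.52 in limma) and after quantile normalization (0.24). The partner of *PDR11* in uptake, *AUS1*, had a mean difference of 0.25 ± 0.19 (adjusted p = 0.46).

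*HEM14*, protoporphyrinogen oxidase of heme synthesis, read 0.73, 0.60, 0.73, 0.38, 0.62, 0.63 and 0.64 with HMF and 0.66, 0.32, 0.05, -0.20, 0.10, -0.19 and -0.45 without it. The HMF arrays lay close together, and the control arrays were high at 10 min and lower later. The treatments thus differed by 0.18 at 10 min, by 0.63 and 0.67 at 30 and 60 min, and by 1.10 between the single arrays of 120 min. Its mean difference was 0.64 ± 0.13 (adjusted p = 0.013 in limma). Neither *PDR11* (0.60, adjusted p = 0.48) nor *HEM14* (0.45, adjusted p = 0.63) was called as deposited, and after quantile normalization *PDR11* just missed the limit (adjusted p = 0.054). *DAP1*, a heme protein that binds Erg11p, had 0.61 ± 0.18 (adjusted p = 0.062), and *HEM13*, the oxygen-dependent step of heme synthesis, 0.38 ± 0.15 (adjusted p = 0.16). *HEM1*, of the same list, went the other way, with -0.38 ± 0.22 (adjusted p = 0.34 in limma). The rest of the list, *CYB5* and *CBR1*, had 0.41 ± 0.38 and 0.13 ± 0.11.

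**Figure D5:**
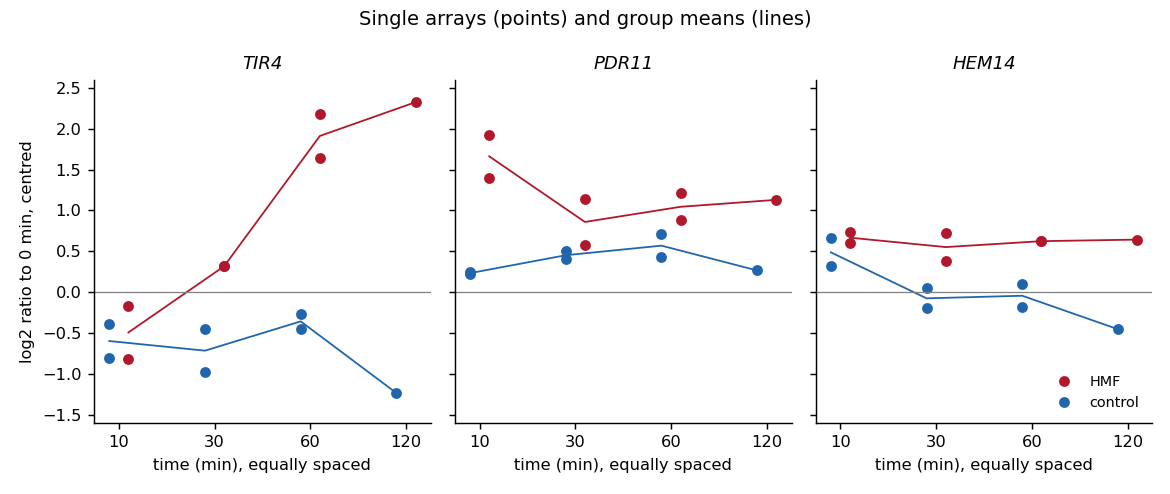
Centred log2 ratio to 0 min (y axis) against time in min (x axis, equally spaced) of the 3 called genes outside the pathway, with single arrays as points and group means as lines. *TIR4* stands at 2.33 with HMF and -1.24 without it at 120 min, and *PDR11* is highest with HMF at 10 min.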

How the data were processed

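RNA of 14 samples of strain NRRL Y-12632 was measured on 2-color long-oligonucleotide arrays, test in Cy3 and 0 min reference in Cy5. The authors scanned the slides with GenePix, subtracted background from the median signal, examined spots by hand, scaled each slide to a spike-in control (CAB) and used GeneSpring. They deposited a log2 ratio (test over reference) per reading frame and array, 6387 by 14, with 0 missing values. How duplicate spots were combined is not given in the sources used here. Intensities were not used here, so filters on dim spots could not be tried, and precision is limited by how many arrays there are. The log base and the direction were checked against the folds that the study lists for a pair of genes.

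Each array was centred on its median. limma 3.58.1 in R 4.3.3 (lmFit, eBayes) fitted 8 group means, with 6 residual and 2.53 prior degrees of freedom. The single 120 min arrays are taken to vary like the replicated groups. Contrasts were HMF minus control at each time, their mean, their equality, and 10 min against later times within each treatment. P values were adjusted by Benjamini-Hochberg over all genes. The fit was tested on simulated data. Errors are moderated SEs, or SDs where stated. All 30 members matched a symbol of the R64 annotation.

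The members and the gene lists were chosen with earlier results of these data known. Values on every array are given for members called in the mean or at a time, the regulators, *HMG1*, *HMG2*, *ERG11* and the 3 highest and 3 lowest mean differences, and of the other genes for those called in the mean. *MVD1* was added after its values were seen, as were *ERG26*, *UBC7* and *DAP1* and the other genes outside the pathway that are named but were not called.

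The labels state no pairing between same-numbered replicates. The correlation across genes of replicate 2 minus replicate 1 was 0.02 to 0.36 over the 15 pairs of groups, with 11 above 0.1. Between HMF and control of 1 time it was 0.17 to 0.31, above 0.1 in all 3. The highest value, 0.36, joined HMF at 30 min and control at 10 min, so the correlation was not particular to groups of 1 time. The main fit has no term for replicate number, and fits that pair by it are given as alternatives. Alternatives were the values as deposited, quantile normalization, replicate number as a block and as a block at each time, eBayes with a robust prior, the two-factor fit of the methods, an added 2-fold criterion, no 120 min arrays, no 10 min arrays (chosen after seeing the data) and each of the 12 replicated arrays left out.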

Additional observations from a re-analysis of the deposited data

Results flagged for a closer look

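After centring, *MVD1*, the mevalonate pyrophosphate decarboxylase gene, lay lower with HMF at 10 min (difference -0.49), where both HMF arrays were below both control arrays. At 60 min the mean difference was 0.28, and both HMF arrays were above both control arrays. The test that its 4 differences are equal gave an adjusted p of 1.0 in limma, so that the change of direction did not pass the test.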

How the results depend on the processing

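The count of members called in the mean was 2. It was 0 as deposited, 1 (*ERG27*) after quantile normalization, without the 120 min arrays and without the 10 min arrays (chosen after seeing the data), and 1 to 3 without 1 replicated array. It was 1, with *ERG27*, in 8 of these 12 fits: without HMF replicate 2 at 10 or 30 min, either HMF replicate at 60 min, control replicate 1 at 10 or 30 min, or either control replicate at 60 min. In the paired analysis, with the replicate block, it was 4, and with a block at each time 3. The two-factor fit of the methods at an unadjusted limit of 0.05 called 6 in the mean, 3, 2, 3 and 1 at 10, 30, 60 and 120 min, and 6 for HMF at 10 min against later, where 24.7%, 17.8%, 15.3%, 12.2%, 8.03% and 19.9% of all genes were under that limit. After adjustment it called 2 in the mean, *ERG27* and *NSG2*. With the replicate block 1 member was called at 10 min and 1 at 60 min, where the main counts were 0. The replicate block changed no other count by more than 1.5 times. For the 11 members named by rule, with 17 alternatives each, 156 values kept direction and side of the limit, 12 lost the call (11 of *ERG28* and *ERG27* as deposited), 3 gained it (*NSG2*) and 16, none of them called, changed sign. As deposited *ECM22* stood at -0.18, *NSG1* at -0.13 and *UPC2* at -0.090. *UPC2* stood at -0.027 after quantile normalization and *ECM22* at -0.16 without the 10 min arrays. With 1 array left out, *ECM22* ran from -0.062 to 0.095, *NSG1* from -0.020 to 0.15 and *ERG1* from -0.26 to 0.079. All genes called in the mean numbered 724, but 118 as deposited and 469 without the 10 min arrays. At 10, 30, 60 and 120 min they numbered 137, 164, 62 and 13, with ranges over the alternatives of 10 to 456, 6 to 335, 1 to 172 and 0 to 14, and for HMF at 10 min against later 210, with a range of 0 to 564. The cause of these changes was not tested. The number of arrays limits what can be called: with 2 arrays a group, or 1 at 120 min, the median standard error of a member's mean difference was 0.17.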
